A study of Homo sapiens with 10 samples.

Results

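HMOX1 was followed together with 9 genes of the same stress response in WT and ZNF274 KO cells: the transcription factors NFE2L2 (NRF2) and BACH1 and the target genes FTL, GCLC, GCLM, SLC7A11, TXNRD1, SRXN1 and NQO1. These 10 members are among 24050 genes listed in either of the 2 count tables. The list was selected on measured values, because HMOX1 was the single gene besides ZNF274 that was called lower in KO HEK293T cells. HMOX1's own difference in HEK293T cells, and its values in the other contrasts that use those libraries, are therefore given as a description without a test. The question was whether HMOX1 moved alone or with its regulators and the other targets.

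RNA-seq covered 10 libraries. HEK293T, an established line of human embryonic kidney origin, gave 3 WT libraries (S15, S16, S17) and 3 KO libraries (S18, S19, S20). NPCs, neural progenitors obtained from H1 embryonic stem cells through embryoid bodies, gave 2 WT libraries (S3, S5) and 2 KO libraries (S1, S2). The KO groups carry a CRISPR-Cas9 deletion made with 2 guides flanking ZNF274, followed by puromycin and isolation of clones from single cells. The labels name no clone, differentiation or culture for any library, so each p-value measures the spread between these libraries alone.

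NRF2 is a basic leucine zipper activator that KEAP1 holds at a low level through degradation. Electrophiles and oxidants release it, and it then binds antioxidant response elements with a small MAF partner. BACH1 binds the same elements as a repressor and leaves them when heme is abundant, and HMOX1 is the best known gene under its control. HMOX1 encodes the inducible heme oxygenase, which splits heme into biliverdin, carbon monoxide and iron. Heme, arsenite and many reactive compounds induce it in most cell types.

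RefSeq promoter windows (GRCh38.p14) were available for 8 of the 10 members, in 12 windows, and the 250 bases before each start were searched. HMOX1 and SLC7A11 had no entry. The core of the antioxidant response element was searched on both strands as TGACNNNGC, and its variant as TGAGNNNGC. Either form was found in 5 windows of 4 members, against 23.9% of 35116 windows of all genes. The AP-1 site TGAGTCA, which can overlap the second form, was found in 1 window, that of BACH1, against 4.20% of all windows. The 5 windows with a match to either form are shown because they belong to members described below. They are read 5′ to 3′ on the strand of the gene, with each match in capitals. They lie at chr1:93909431-93909680 (minus strand) for GCLM, chr2:177264132-177264381 (minus) for NFE2L2, chr12:104215529-104215778 and chr12:104286782-104287031 (plus) for the 2 starts of TXNRD1, and chr16:69726561-69726810 (minus) for NQO1.
GCLM: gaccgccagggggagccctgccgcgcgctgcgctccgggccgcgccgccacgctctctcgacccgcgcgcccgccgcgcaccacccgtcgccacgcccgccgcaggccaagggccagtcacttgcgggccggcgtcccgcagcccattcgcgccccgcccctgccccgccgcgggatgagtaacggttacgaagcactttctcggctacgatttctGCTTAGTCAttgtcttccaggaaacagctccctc
NFE2L2: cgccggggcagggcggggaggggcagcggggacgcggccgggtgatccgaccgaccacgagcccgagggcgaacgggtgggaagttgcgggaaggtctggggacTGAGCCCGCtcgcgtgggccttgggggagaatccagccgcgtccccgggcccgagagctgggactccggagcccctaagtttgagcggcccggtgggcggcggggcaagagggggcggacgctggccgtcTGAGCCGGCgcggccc
TXNRD1, start 1: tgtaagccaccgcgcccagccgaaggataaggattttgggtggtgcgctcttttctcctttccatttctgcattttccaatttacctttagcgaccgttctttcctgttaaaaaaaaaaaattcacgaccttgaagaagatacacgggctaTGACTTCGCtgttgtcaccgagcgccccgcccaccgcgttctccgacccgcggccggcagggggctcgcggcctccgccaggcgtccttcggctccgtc
TXNRD1, start 2: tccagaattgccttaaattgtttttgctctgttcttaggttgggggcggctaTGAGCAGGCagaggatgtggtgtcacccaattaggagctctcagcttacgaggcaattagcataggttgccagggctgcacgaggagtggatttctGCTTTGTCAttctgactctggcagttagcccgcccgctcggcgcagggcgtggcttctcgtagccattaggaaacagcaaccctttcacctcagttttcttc
NQO1: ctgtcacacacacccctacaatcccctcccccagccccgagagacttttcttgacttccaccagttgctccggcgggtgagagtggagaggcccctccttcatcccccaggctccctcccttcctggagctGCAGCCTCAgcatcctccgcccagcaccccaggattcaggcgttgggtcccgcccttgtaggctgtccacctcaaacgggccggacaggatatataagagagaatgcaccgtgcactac
In GCLM the match TGACTAAGC lies on the opposite strand, and its last base is the farthest from the start, 34 bases before it. A match is a run of letters only, and binding was not measured at any of these windows. Bases farther upstream than 250 were not searched, so a member without a match may have one there.

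Libraries held between 18621266 and 32285876 counts on genes, and levels are given as CPM, counts scaled to the library total and corrected by TMM. A level of 3 counts, taken as the floor, corresponded to 0.0921 to 0.154 CPM across the libraries. All 10 members had at least as many counts in total as there were libraries, and were tested in both cell types. ZNF274 checked the labels, with 15.4 ± 1.14 CPM (SD, n = 3) in WT HEK293T cells, 24.3 ± 1.52 CPM (SD, n = 2) in WT NPCs and 0 counts in all 5 KO libraries. KO HEK293T library S18 differed most from its group, with a chi-square per degree of freedom of 72.0 and 81.9 against S20 and S19, where the other HEK293T pairs of a group gave 19.99 to 45.5.

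In HEK293T cells HMOX1 (chr22:35776354-35790207, hg19) was at 105, 90.8 and 190 CPM in WT libraries S15, S16 and S17. In KO libraries S18, S19 and S20 it was at 41.4, 40.2 and 53.0 CPM. The highest KO library lay below the lowest WT library, and WT library S17 stood well above the other 2. The means were 129 ± 53.8 CPM and 44.8 ± 7.05 CPM (SD, n = 3 each), a log2FC of -1.52 (SE 0.256), or 2.87-fold lower in KO. Without S17 the log2FC was -1.13, and over all single libraries left out it ran from -1.72 to -1.13. Genes were called at an adjusted p below 0.05 and a fold above 2 in edgeR's quasi-likelihood test. By that rule 0.489% of 19018 genes were called and 0.0105% were called lower, namely HMOX1 and ZNF274, which is what chose HMOX1.

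The regulators of HMOX1 did not pass the test in HEK293T cells. NFE2L2 (chr2:178083395-178257484) was at 64.8, 88.4 and 77.5 CPM in WT and at 64.3, 69.8 and 63.0 CPM in KO, and the groups overlapped. Its log2FC was -0.23 (SE 0.151, adjusted p = 0.808). BACH1 (chr21:30566392-31003071) was at 34.2, 36.7 and 36.7 CPM in WT and at 30.9, 52.3 and 39.1 CPM in KO. KO library S19 was the high one, the log2FC was 0.18 (SE 0.191, adjusted p = 0.879), and without S19 it was -0.026. KEAP1, the sensor that degrades NRF2, was at 70.2 ± 5.79 CPM in WT and 63.2 ± 4.38 CPM in KO (log2FC -0.15, adjusted p = 0.865). HMOX2, the constitutive heme oxygenase, was at 70.0 ± 6.43 and 62.8 ± 11.1 CPM (log2FC -0.15, adjusted p = 0.883; SD, n = 3 for both genes).

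**Figure D1:**
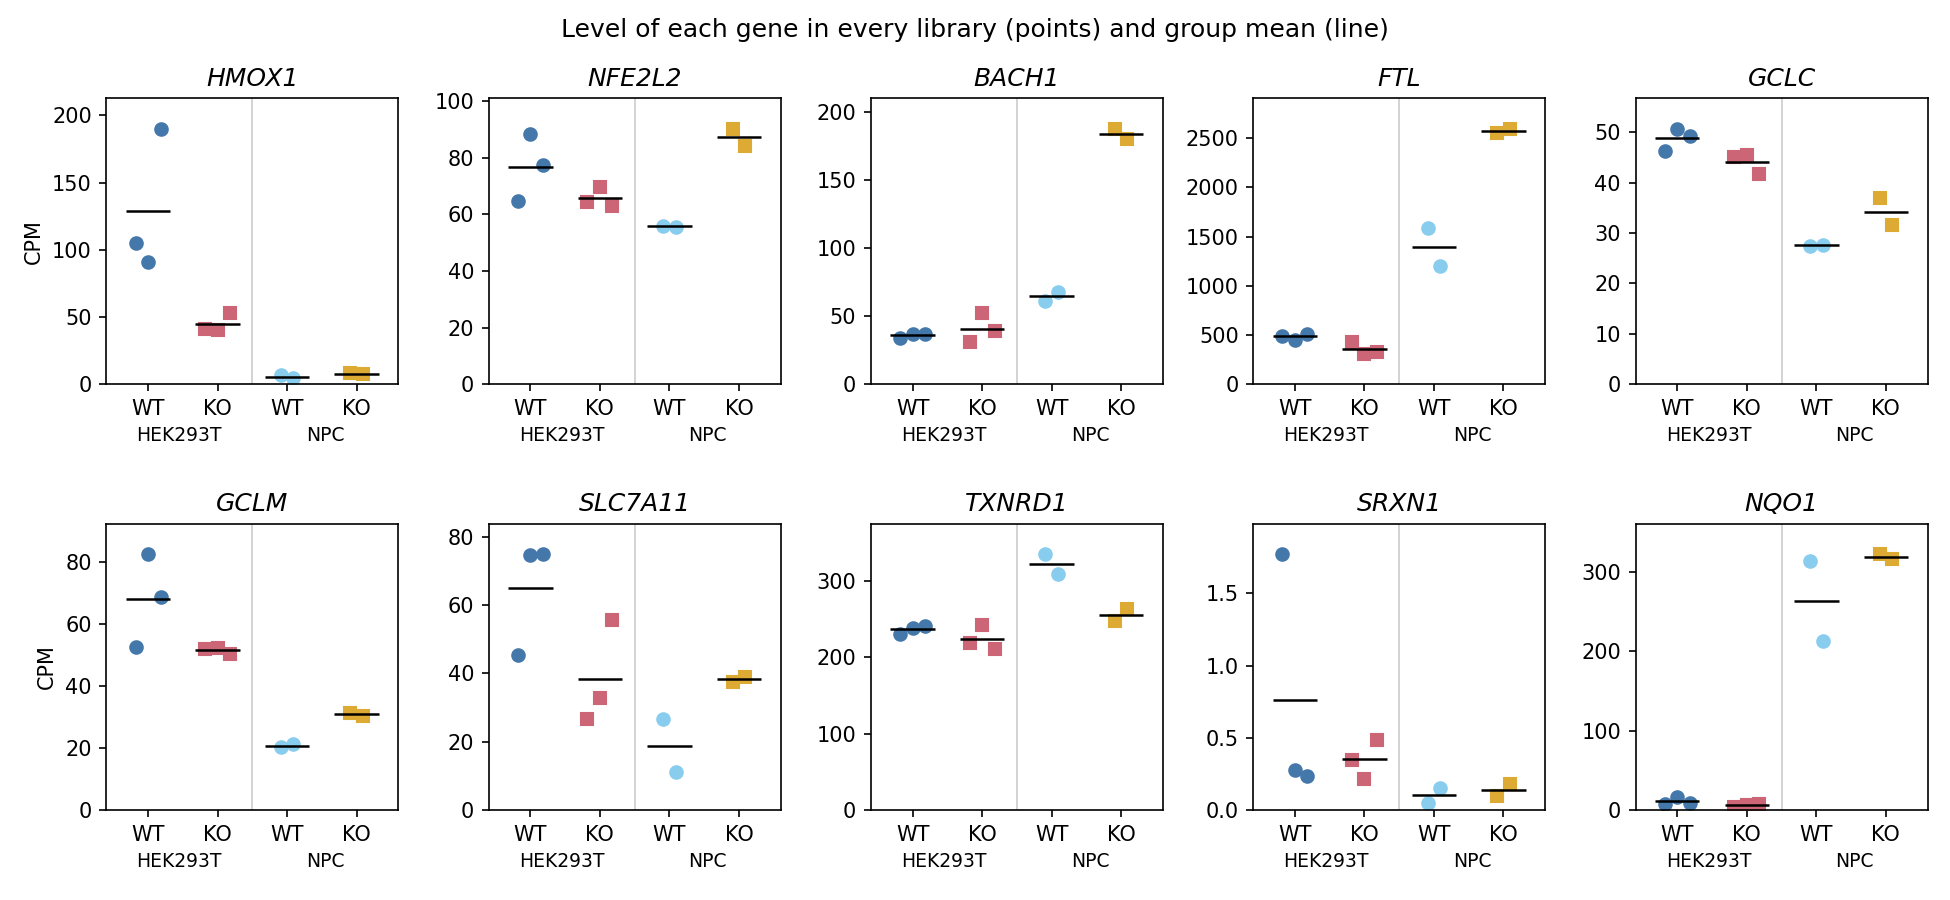
Level of each member in CPM (vertical axes from 0, one scale per gene) in every library, points, with the group mean as a line, for WT and KO HEK293T cells (3 libraries each) and WT and KO NPCs (2 each). HMOX1 lies at 90.8 CPM or above in WT HEK293T libraries, between 40.2 and 53.0 CPM in KO HEK293T libraries and at 8.0 CPM or below in NPCs.

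Of the targets, FTL and SLC7A11 had the lowest unadjusted p-values in HEK293T cells. FTL (chr19:49468566-49470136), the light chain of the iron store ferritin, was at 493, 448 and 514 CPM in WT and at 428, 302 and 328 CPM in KO. All KO libraries lay below all WT libraries, with a log2FC of -0.46 (SE 0.150, unadjusted p = 0.0108, adjusted p = 0.501). The annotation holds 16 pseudogenes named after FTL, and reads that fit several copies were not counted. SLC7A11 (chr4:139085251-139163503), the cystine importer that feeds glutathione synthesis, was at 45.3, 74.7 and 74.8 CPM in WT and at 26.6, 32.7 and 55.7 CPM in KO. The ranges overlapped through S15 and S20, and the log2FC was -0.76 (SE 0.275, unadjusted p = 0.0187, adjusted p = 0.569).

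The 2 subunits of glutamate-cysteine ligase, which makes the first step of glutathione synthesis, both had KO libraries wholly below WT libraries. GCLM (chr1:94350755-94375012), the modifier subunit, was at 52.7, 82.5 and 68.7 CPM in WT and at 52.1, 52.3 and 50.4 CPM in KO (log2FC -0.40, SE 0.171, unadjusted p = 0.0404, adjusted p = 0.673). The WT libraries were spread and the KO libraries were nearly equal, so that S15 lay within 1 CPM of the KO group. GCLC (chr6:53362139-53481768), the catalytic subunit, was at 46.3, 50.7 and 49.3 CPM in WT and at 45.0, 45.5 and 41.7 CPM in KO (log2FC -0.15, SE 0.136, adjusted p = 0.866).

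NQO1 (chr16:69740899-69760571), a quinone reductase, was at 7.54, 16.8 and 8.37 CPM in WT and at 3.93, 5.90 and 8.07 CPM in KO. S16 was the high WT library and the groups overlapped, with a log2FC of -0.87 (SE 0.349, unadjusted p = 0.0305, adjusted p = 0.642) that was -0.41 without S16. TXNRD1 (chr12:104609557-104744085), the cytosolic thioredoxin reductase, was at 231, 238 and 240 CPM in WT and at 218, 242 and 210 CPM in KO (log2FC -0.08, SE 0.122, adjusted p = 0.914). SRXN1 (chr20:627259-633844), which repairs oxidised peroxiredoxins, had 53, 8 and 7 counts in WT and 8, 7 and 13 counts in KO. Its log2FC of -1.13 (SE 0.764, adjusted p = 0.810) turned to 0.43 without S15. SRXN1 also shares 90.7% of its exonic bases with a second gene on the same strand, so its counts are uncertain.

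Leaving out HMOX1, whose low KO level chose the list, 8 of the 9 other members had a log2FC below 0 in HEK293T cells, with a median of -0.40, while 48.6% of all genes were below 0 and their median was 0.011. KO libraries lay wholly below WT libraries for 3 of the 9 (FTL, GCLC and GCLM), against 5.27% of all genes. Of the 9, edgeR called 0, as did DESeq2 and voom, and 4 (FTL, SLC7A11, NQO1 and GCLM) had an unadjusted p below 0.05, all lower, against 2.69% of all genes with that p and direction. DESeq2 and voom in limma put 4 and 3 of the 9 at that level. This count rested on single libraries: it was 0 without KO library S19, 1 without WT library S16, and 2 without S17 or S18. Without KO library S18, FTL passed the p threshold alone (log2FC -0.62, adjusted p = 0.0317). The members share libraries and are known to be regulated together, so they are not independent of each other.

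**Figure D2:**
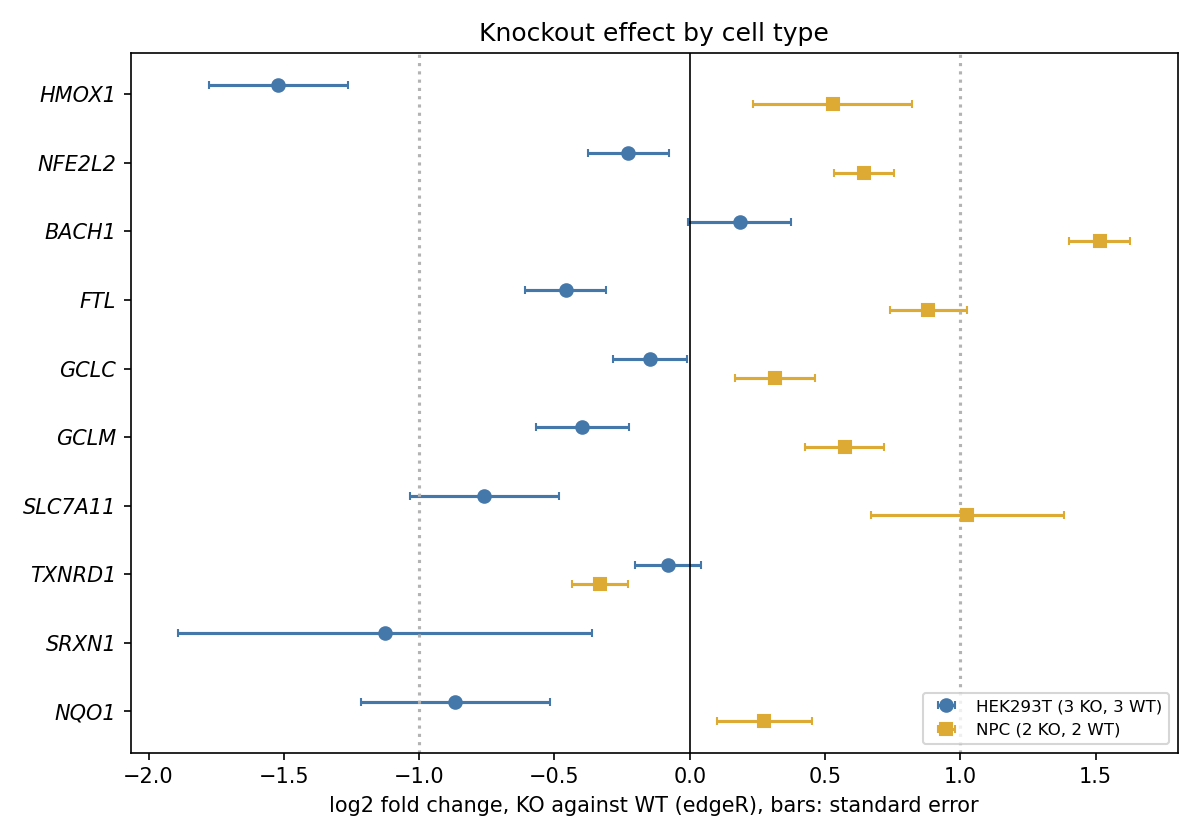
Log2 fold change of KO against WT (horizontal axis, edgeR) with its standard error for each member in HEK293T cells (circles) and NPCs (squares). Dotted lines mark a fold of 2. SRXN1 is left out in NPCs, where its counts are at or near the floor. HMOX1 is at -1.52 in HEK293T cells and 0.53 in NPCs.

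Across the 6 HEK293T libraries, the genes whose level followed HMOX1 most closely were RPP25L (Pearson r of log2(CPM + 1) 0.9996), POLR1H (0.996), MECR (0.985), UNC13B (0.984) and XAB2 (0.979), out of 12974 genes of at least 1 CPM on average. RPP25L was at 32.1, 31.0 and 39.6 CPM in WT and at 23.6, 23.2 and 25.6 CPM in KO, with the same high library S17 and a smaller range. Among the members, r was highest for FTL (0.796, rank 428) and SLC7A11 (0.776, rank 528), and it was 0.661 for GCLC, 0.601 for GCLM, 0.514 for NQO1, 0.50 for NFE2L2, 0.443 for TXNRD1 and -0.29 for BACH1. These values come from 6 points that share a KO-WT difference, and are a description. Within WT cells the highest library was S17 for HMOX1 and FTL, but S16 for NFE2L2, GCLM and NQO1. For FTL, S15 was close to S17 (493 and 514 CPM). S16 and S17 were close for TXNRD1 (238 and 240 CPM) and GCLC (50.7 and 49.3 CPM), and nearly equal for BACH1 and SLC7A11.

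**Figure D3:**
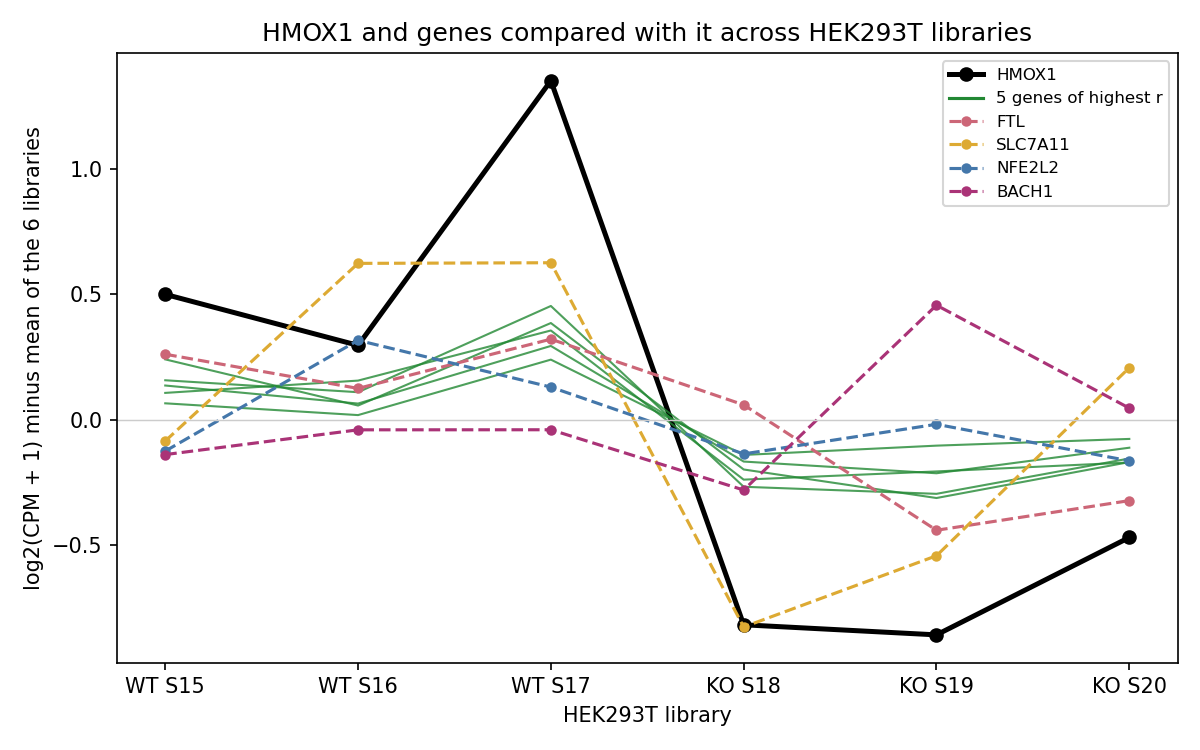
Log2(CPM + 1) minus its mean over the 6 HEK293T libraries (vertical axis) for HMOX1, the 5 genes with the highest r (green) and 4 members (dashed), by library (horizontal axis). FTL follows HMOX1 with r = 0.796 and a smaller range, while BACH1 peaks in KO library S19 at 52.3 CPM.

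The genes around HMOX1 had log2FCs near or above 0. Within 500 kb, 5 protein-coding genes were tested in HEK293T cells (HMGXB4, TOM1, MCM5, RASD2 and RBFOX2), of which 0 were called by edgeR and 0 had an unadjusted p below 0.05, with log2FCs from -0.14 to 0.71. MCM5, a replication helicase subunit and the nearest of them, lies 5920 bases from HMOX1 and had a log2FC of -0.08 (SE 0.137). The median log2FC of the 308 genes of chromosome 22 of at least 1 CPM on average was 0.043.

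The wider NRF2 pathway was followed with lists of regulators, heme and iron, glutathione, thioredoxin, drug handling, NADPH supply and other targets. Of 64 such genes tested in HEK293T cells, edgeR called 0. At an unadjusted p below 0.05, FTH1 and IDH1 were lower and PIR was higher, shares close to the 2.69% and below the 4.43% of all genes. FTH1, the heavy chain of ferritin, had a log2FC of -0.35 (SE 0.153, adjusted p = 0.673) beside the -0.46 of FTL. IDH1, a source of cytosolic NADPH, was at -0.41 (SE 0.170, adjusted p = 0.661). The median over the 64 genes was -0.04, and 40 were below 0.

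Other stress responses were listed because several of them also act on HMOX1 or SLC7A11. Of 42 genes tested in HEK293T cells, edgeR called 0, with 8 lower and 2 higher at an unadjusted p below 0.05, against 2.69% and 4.43% of all genes. In the heat shock list 9 of 10 genes were below 0, beside 48.6% of all genes, and 4 of them had such a p: HSPA1A (log2FC -1.46, SE 0.381, adjusted p = 0.258), HSPA1B (-0.61), HSPD1 (-0.47) and HSPE1 (-0.60). HSPA1A and HSPA1B are near-identical copies of the inducible HSP70, and reads that fit both were not counted. In the ATF4 list, the amino acid response that also drives SLC7A11, the serine synthesis gene PSAT1 (log2FC -1.17, SE 0.274, adjusted p = 0.161), PHGDH (-0.52), ASNS (-0.67) and CHAC1 (-1.04) were lower at that level. DDIT3 (1.13, SE 0.267, adjusted p = 0.166) and ATF3 (0.50) were higher. The hypoxia, metallothionein and AP-1 lists had 0 genes at that level. Of the 106 genes of all these lists, DESeq2 called 3 (PSAT1 and HSPA1A lower, DDIT3 higher), and voom called 0. Of all 19018 genes tested, DESeq2 called 162 and voom called 80.

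**Figure D4:**
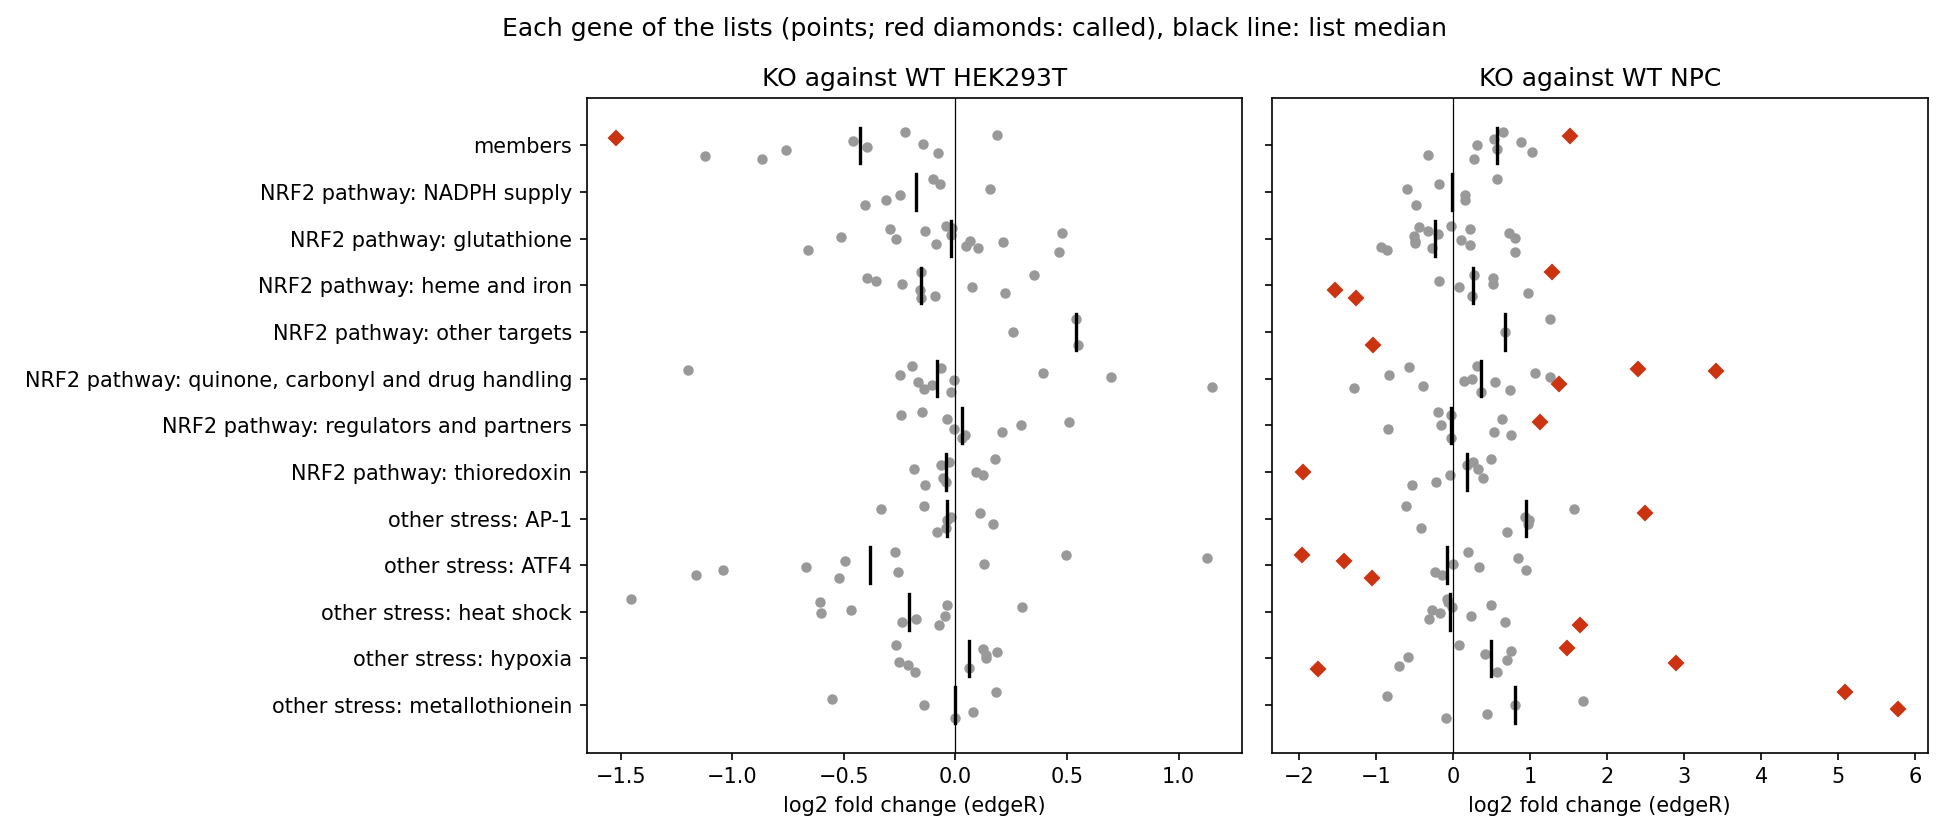
Log2 fold change (edgeR, horizontal axes with different ranges) of the members (SRXN1 left out in NPCs) and of each gene in 12 stress lists, in HEK293T cells (left) and NPCs (right). Black lines are list medians and red diamonds are called genes: HMOX1 alone on the left, 1 member and 19 list genes on the right.

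In NPCs the KO libraries departed from their label. Of 14 neural progenitor markers, 9 were called lower (median log2FC -4.39), among them SOX2 at 223 ± 5.52 CPM in WT and 16.9 ± 5.93 CPM in KO (SD, n = 2), while HES5 and SIX3 were at 0 counts in KO. The list's summed level was 9879 to 9996 CPM in WT and 9638 to 10346 CPM in KO, carried by VIM and NES, which other cell types share. Of 8 neuronal markers 4 were called lower and 1 higher, with sums of 1081 to 1174 CPM in WT and 174 to 219 CPM in KO. MAP2 made up most of these sums, with means of 1041 and 147 CPM. STMN2 (16.5 and 20.7 CPM) and TUBB3 (6.63 and 6.36 CPM) were among those not called. Of 11 mesenchymal markers tested 5 were called higher, with sums of 1331 to 2220 and 5299 to 6156 CPM, mostly from COL1A1 and COL1A2. Of 6 neural crest and 6 simple epithelium markers, 3 each were called higher. The neural crest sums were 21.5 to 25.3 and 140 to 210 CPM, mostly from SNAI2 (means of 20.9 and 152 CPM). The simple epithelium sums were 342 to 597 and 1317 to 1475 CPM, mostly from KRT8 and KRT18. Of 4 pluripotency markers tested, 1 was called higher and 1 lower, with sums of 139 to 161 and 65.1 to 70.4 CPM. Beside these counts, 8.45% of all genes tested in NPCs were called higher and 8.36% lower. In HEK293T cells 0 genes of these 6 lists were called, where 0.489% of all genes were. These shifts moved with every NPC result below, and their part in those results was not tested. In bulk RNA a different number of cells of a type and a different amount of RNA per cell cannot be told apart.

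HMOX1 was low in NPCs. It was at 6.72 and 4.25 CPM in WT libraries S3 and S5 and at 8.0 and 7.84 CPM in KO libraries S1 and S2, from 83 to 174 counts a library. Both KO libraries lay above both WT libraries, but the difference did not pass the test, with a log2FC of 0.53 (SE 0.293, adjusted p = 0.224 in edgeR). It was 0.23 without WT library S5 and 0.90 without WT library S3, the extremes over all alternatives, whose adjusted p ran from 0.0180 to 0.599.

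Both transcription factors rose in KO NPCs. BACH1 was at 61.0 and 68.0 CPM in WT and at 188 and 181 CPM in KO, a log2FC of 1.51 (SE 0.112, adjusted p = 0.000207), and was the 1 member called. In that direction 8.45% of 20577 genes were called, and 8.36% were called lower. The median log2FC was 0.0062 over the 140 genes of chromosome 21 of at least 1 CPM on average. NFE2L2 was at 56.1 and 55.6 CPM in WT and at 90.3 and 84.1 CPM in KO, a log2FC of 0.64 (SE 0.111, adjusted p = 0.00556), below the fold threshold. KEAP1 was at 41.6 and 47.6 CPM in WT and at 37.5 and 40.7 CPM in KO (log2FC -0.19, SE 0.137, adjusted p = 0.345).

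Among the targets FTL and GCLM rose in KO NPCs. FTL was at 1588 and 1204 CPM in WT and at 2550 and 2596 CPM in KO (log2FC 0.88, SE 0.143, adjusted p = 0.00434). GCLM was at 20.2 and 21.3 CPM in WT and at 31.3 and 30.4 CPM in KO (log2FC 0.57, SE 0.145, adjusted p = 0.0252). With BACH1 and NFE2L2 these made 4 of 10 members higher at an adjusted p below 0.05 at any fold, against 15% of all genes. Leaving out 1 KO library took GCLM (S1 or S2), NFE2L2 (S1) and FTL (S2, adjusted p = 0.0507) above the threshold, as scaling by library size alone did for GCLM (adjusted p = 0.0558). BACH1 passed under every alternative. SLC7A11 was at 26.5 and 11.1 CPM in WT and at 37.6 and 39.1 CPM in KO, with a log2FC of 1.03 (SE 0.356, adjusted p = 0.0717). DESeq2 and voom called it, but the value rested on the WT libraries, being 0.52 without S5 and 1.79 without S3.

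GCLC was at 27.4 and 27.6 CPM in WT and at 36.9 and 31.5 CPM in KO (log2FC 0.31, SE 0.148, adjusted p = 0.159). NQO1 was at 313 and 213 CPM in WT and at 322 and 315 CPM in KO (log2FC 0.28, SE 0.176, adjusted p = 0.286), and its log2FC was 0.017 without S5 and 0.58 without S3. TXNRD1 had its lower values in KO, at 334 and 308 CPM in WT and 247 and 263 CPM in KO (log2FC -0.33, SE 0.104, adjusted p = 0.0517). It passed the p threshold, as lower, with voom, library size alone, edgeR's filterByExpr, and without S3 or S5, the adjusted p over all alternatives running from 0.000870 to 0.346. SRXN1 had 1 and 3 counts in WT and 2 and 4 in KO, at or near the floor, and no fold is given. KO libraries lay wholly above WT libraries for 8 members and wholly below for TXNRD1, where 33.3% and 33.8% of all genes did so in a design of 2 against 2.

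Called genes of the wider NRF2 pathway went both ways in NPCs. Of 68 genes tested 5 were called higher and 4 lower, against the 8.45% and 8.36% of all genes, and the median log2FC was 0.16. In the heme and iron list HMOX2 was called higher, from 38.1 ± 2.83 to 92.7 ± 3.44 CPM (SD, n = 2 each; log2FC 1.28, SE 0.120, adjusted p = 0.000480), while the transferrin receptor TFRC was called lower (log2FC -1.27, adjusted p = 0.000883). The peroxiredoxin PRDX2 was called lower, from 313 ± 33.8 to 81.3 ± 9.30 CPM (log2FC -1.94, adjusted p = 0.000157). In the drug handling list the exporter ABCC1 (log2FC 1.38, adjusted p = 0.000832) and the aldo-keto reductase AKR1C2 (log2FC 3.42, adjusted p = 0.00190, from 0.424 to 4.55 CPM) were called higher. AKR1C2 has close paralogs, and reads that fit several copies were not counted.

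Of the 45 genes of other stress responses tested in NPCs, 6 were called higher and 4 lower, where 8.45% and 8.36% of all genes were. The metallothionein MT2A went from 3.62 ± 1.83 to 197 ± 77.9 CPM (SD, n = 2 each; log2FC 5.77, adjusted p = 0.000185). The hypoxia-responsive gene NDRG1 (log2FC 2.89, adjusted p = 0.000909) and the HSP70 co-chaperone BAG3 (log2FC 1.65, adjusted p = 0.000181) were also called higher. ATF3 (log2FC -1.97, adjusted p = 0.000400) and PHGDH (log2FC -1.06, adjusted p = 0.00109), both of the ATF4 list, were called lower. Of the 6 genes tested within 500 kb of HMOX1, edgeR called 1 in NPCs, the apolipoprotein L gene APOL6 (log2FC 4.56, SE 0.868, adjusted p = 0.00841). In all, 5 of the 6 had an unadjusted p below 0.05, where 40.3% of all genes did, and 4 an adjusted one, where 28.6% did, with TOM1 (0.67) and RBFOX2 (0.61) higher and MCM5 (-0.54) lower below the fold threshold.

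The KO effect was compared between the cell types as an interaction in 1 fit over all 10 libraries and 19255 genes. FTL, BACH1 and SLC7A11 were called, and all 3 differed in the direction of a higher effect in NPCs. The difference was 1.36 for FTL (SE 0.229, adjusted p = 0.00214), 1.35 for BACH1 (SE 0.264, adjusted p = 0.00521) and 1.80 for SLC7A11 (SE 0.522, adjusted p = 0.0357). The background was 6.01% of genes called higher. NFE2L2 (0.89, adjusted p = 0.0140) and GCLM (0.99, adjusted p = 0.0200) passed the p threshold alone, making 5 of 8 members, HMOX1 and SRXN1 set aside, against 7.74% of all genes. The call of SLC7A11 was lost when any of S16, S17, S19, S5, S1 or S2 was left out. GCLM missed the p threshold without any 1 of the 4 NPC libraries and with library size alone, and NFE2L2 missed it without S1. FTL and BACH1 kept their calls throughout, and without S15 GCLM and NFE2L2 were called too.

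HMOX1 itself had a difference of 2.06 (SE 0.429), given without a test because its HEK293T value is part of it. NQO1 (1.16, SE 0.470, adjusted p = 0.119), GCLC (0.48, adjusted p = 0.128) and TXNRD1 (-0.23, adjusted p = 0.388) did not pass. The interaction uses the same libraries as the separate comparisons and the NPC side of it carries the marker shifts above, so the cell type and the change of marker profile cannot be told apart.

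Levels of the members differed widely between WT NPCs and WT HEK293T cells, in libraries whose cell type and culture cannot be told apart. HMOX1 had a log2 difference of -4.54 (SE 0.356), or 23.2-fold lower in NPCs, given without a test. NQO1 was 24.2-fold higher in NPCs, at 263 ± 70.7 CPM (SD, n = 2) against 10.9 ± 5.12 CPM (SD, n = 3), a log2 difference of 4.60 (SE 0.348, adjusted p = 3.98e-07). FTL was also called higher (1.53, adjusted p = 5.50e-06). SLC7A11 (-1.78, adjusted p = 0.00185) and GCLM (-1.70, adjusted p = 9.15e-06) were called lower. SRXN1 had 53, 8 and 7 counts in the HEK293T libraries and 1 and 3 in the NPC libraries, at or below the floor, so no difference is given. GCLC (-0.82), NFE2L2 (-0.45), BACH1 (0.85) and TXNRD1 (0.45) passed the p threshold alone. The 8 members other than HMOX1 and SRXN1 thus differed at an adjusted p below 0.05, where 56.8% of all genes did so, 25.2% being called higher and 15.5% lower. NFE2L2 missed that level with library size alone or without S16, S17, S3 or S5, and TXNRD1 without S3.

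Per length, as RPKM over the exons of the annotation, FTL was the most abundant member in all 4 groups, at 556 RPKM in WT HEK293T cells and 1609 RPKM in WT NPCs. HMOX1 was second in WT HEK293T cells at 55.7 RPKM (39.5 to 82.3), above TXNRD1 at 35.1 RPKM (34.2 to 35.7), and the third in KO cells at 19.4 RPKM, below TXNRD1. GCLC, NFE2L2, BACH1 and NQO1, at 3.67 to 5.65 RPKM in WT HEK293T cells, overlapped their neighbours in that order. In WT NPCs NQO1 was second at 88.8 RPKM and HMOX1 eighth at 2.39 RPKM, where its range overlapped that of SLC7A11. BACH1 exceeded NFE2L2 in NPCs, at 8.44 against 3.74 RPKM in WT and 24.4 against 5.91 RPKM in KO, while in WT HEK293T cells the ranges of the 2 factors overlapped at 4.67 and 5.13 RPKM. The size of this gap depends on the exon lengths of 7666 bases for BACH1 and 14975 for NFE2L2, since in WT NPCs the levels before division by length were 64.5 ± 4.95 and 55.8 ± 0.359 CPM (SD, n = 2). NFE2L2 shares 23.4% of its exonic bases with HNRNPA3 on the opposite strand and 13.6% with a lncRNA on the same strand, and BACH1 shares 14.0% with GRIK1-AS2 on the same strand, so both levels are uncertain. SRXN1 was last in all 4 groups.

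**Figure D5:**
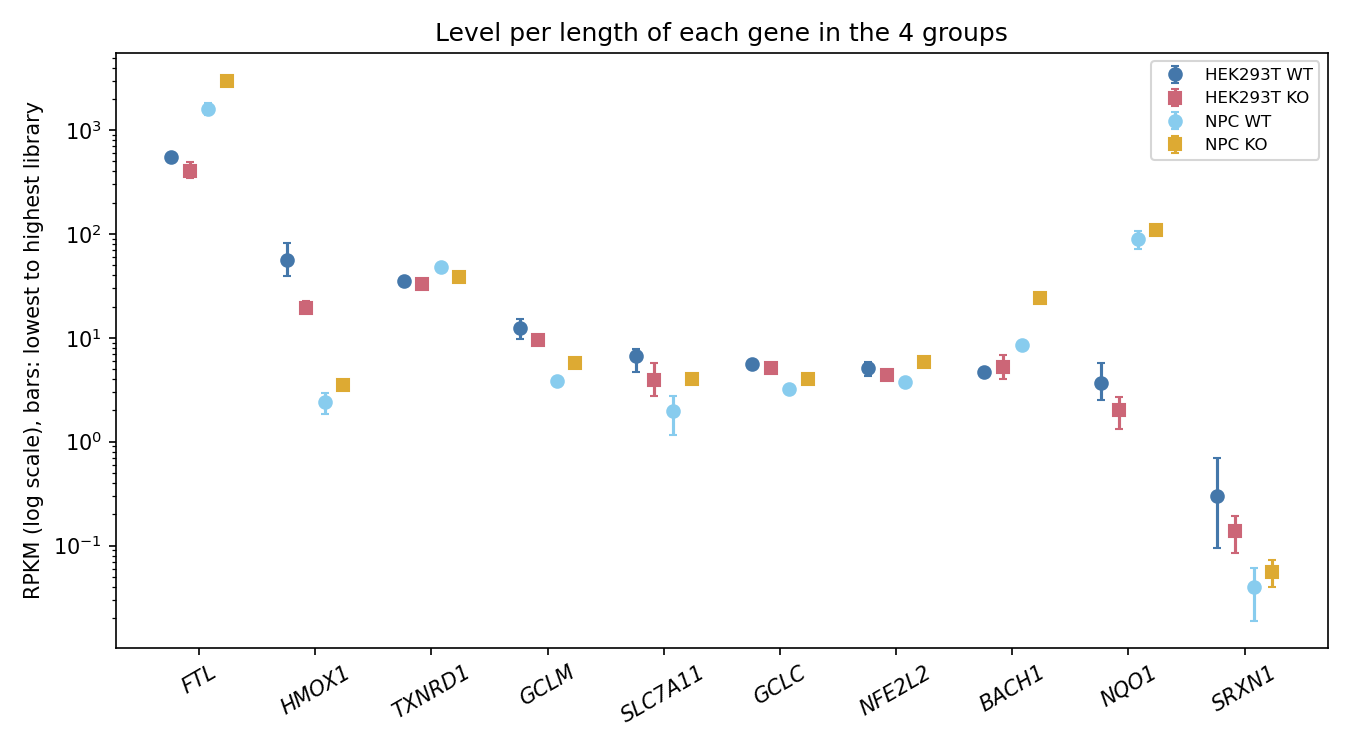
Mean RPKM (vertical axis, log scale) of each member in the 4 groups, with bars from the lowest to the highest library. HMOX1 spans 55.7 RPKM in WT HEK293T cells to 2.39 RPKM in WT NPCs, and NQO1 runs the other way, from 3.67 to 88.8 RPKM.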

How the data were processed

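For each cell type the authors deposited 1 table of raw counts per gene, made by featureCounts from the uniquely placed reads of stranded mRNA libraries after HISAT2 alignment (hg19). Versions are not given in the sources used here. The strand was set at alignment, but for the counting step its setting is not given in the sources used here, so antisense and overlapping genes may share reads. Of 24050 identifiers, 23273 were paired with symbols and hg19 coordinates through the lifted GENCODE annotation.

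Genes with a total count of at least the number of libraries were tested (19018 in HEK293T cells, 20577 in NPCs, 19255 over all 10 libraries) with TMM scaling and the quasi-likelihood test of edgeR 4.0.16 in R 4.3.3, after the scripts were tested on simulated data. P-values were adjusted by Benjamini-Hochberg over all genes tested. Calls needed an adjusted p below 0.05 together with a fold above 2. The SE is the log2FC divided by the root of the F statistic. RPKM used the summed exon length of each gene. Alternatives were DESeq2 1.42.0, voom in limma 3.58.1, other scalings, filters and thresholds, all libraries in 1 fit, and each library left out. Libraries of a group differed beyond sampling noise, so each counted as 1 sample. The study's methods used voom.

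The text names all 10 members, HMOX2, KEAP1 and ZNF274, the called list genes (up to 10 per comparison, by adjusted p), the genes within 500 kb of HMOX1, and the 5 genes whose level was most like HMOX1 across the HEK293T libraries. List genes named at an unadjusted p alone, and markers, were singled out after their values were seen. The members and lists were chosen with earlier results of these data known. Depth was 18621266 to 32285876 counts a library, and the floor of 3 counts covers counting error alone. Transposable elements and the other assays of the study were not analysed here.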

Additional observations from a re-analysis of the deposited data

Results flagged for a closer look

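For 5 members the KO effect differed between the cell types by the test of an interaction over all 10 libraries on the log2 scale (NPC minus HEK293T), where 7.74% of all genes passed in that direction. FTL differed by 1.36 (edgeR adjusted p = 0.00214), with all 3 KO libraries below WT in HEK293T cells and both KO libraries above WT in NPCs. BACH1 differed by 1.35 (adjusted p = 0.00521), SLC7A11 by 1.80 (adjusted p = 0.0357), NFE2L2 by 0.89 (adjusted p = 0.0140) and GCLM by 0.99 (adjusted p = 0.0200). In NPCs both KO libraries of each of these 4 genes lay above both WT libraries, while in HEK293T cells only GCLM of the 4 had KO libraries apart from WT libraries, below them. Of all genes, 33.3% had both KO libraries above WT in NPCs and 5.27% had all KO libraries below WT in HEK293T cells. HMOX1 had every KO library below WT in HEK293T cells, which chose it, and above WT in NPCs; its difference of 2.06 was not tested.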

How the results depend on the processing

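No paired analysis was possible because the labels share no replicate numbers between groups. The called count in HEK293T cells, which is HMOX1 by the value that chose it and no test of it, was 0 to 1 with single libraries left out, being 0 without S15 or S19. Members other than HMOX1 that were lower there at an unadjusted p below 0.05 numbered 0 to 4, and those at an adjusted p below 0.05 at any fold 0 to 1. In NPCs the called count of 1 became 4 with no fold threshold, 2 with DESeq2 and 2 with voom, and ran from 1 to 3 with single libraries left out, being 3 without S3 (FTL at 1.10 and SLC7A11 at 1.79 joined BACH1). Members at an adjusted p below 0.05 at any fold numbered 4 to 6 there over the other tools, scalings and filters, TXNRD1 being lower where it passed. In the main fit 28.6% of all genes passed. With single libraries left out, an arm held 1 library. The number of members then fell without S1 or S2 and rose without S3 or S5, as did the number of all genes called. For the interaction, with HMOX1 and SRXN1 set aside, 2 to 5 members were called with single HEK293T libraries left out. In those fits 4 to 5 passed the p threshold. Leaving out any NPC library, so that an arm held 1 library, gave fewer such members than the main fit. The number of all genes called fell in those fits too. Between the WT groups 4 of those 8 members were called in each such fit, and the count over the whole list went to 10 with no fold threshold, in which HMOX1 and SRXN1 are not read as results. List genes called in HEK293T cells numbered 3 with DESeq2, where 162 of all 19018 genes were called. With single libraries left out they numbered 0 to 2, where 44 to 116 of all genes were called. The 2 were ASNS and PSAT1 without S20. In NPCs 43 of 113 list genes passed with no fold threshold, where 28.6% of all genes did, and 14 to 28 were called with single libraries left out, where 2084 to 4038 of all genes were. Directions turned for TXNRD1 in HEK293T cells with library size alone (0.0082), for BACH1 in HEK293T cells (-0.026 to 0.35 over libraries left out) and for SRXN1 (-1.55 to 0.43 in HEK293T cells, and -0.12 to 1.45 in NPCs, where its counts are at or near the floor). The cause of these changes was not tested. Where an arm was left with 1 library, that library was taken to vary like the others of the fit. Beside the member counts, 5890 of all 20577 genes passed in NPCs with no fold threshold, and DESeq2 and voom called 3264 and 3268. Between the WT groups 10938 of all 19255 genes passed with no fold threshold. In the interaction 1833 to 2494 of all genes were called with single HEK293T libraries left out. Scaling by library size alone moved the median log2FC of all genes by -0.11 in NPCs and -0.21 in the interaction, so values there are relative to the TMM scale. Beside the counts, and without the untested values of HMOX1 and those of SRXN1 that include NPC libraries, 425 of the values for single members kept their direction and their side of the call rule, p and fold together, while 6 lost the call (SLC7A11 in the interaction), 6 gained it and 3 turned.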
